A study of Mus musculus with 9 samples.

Results

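The clustered protocadherins were taken from the count table by symbol, as the genes whose name starts with Pcdha, Pcdhb, Pcdhga, Pcdhgb or Pcdhgc followed by a number, together with Pcdhac1 and Pcdhac2. The rule found 58 of the 36410 genes listed and used no expression value, though the members were chosen with earlier results of these data known. They were 14 alpha, 22 beta and 22 gamma members, and the gamma members were 12 A-type, 7 B-type and 3 C-type genes. RefSeq placed all 58 on chromosome 18 in GRCm38.p6, between 36930285 and 37841873, with the alpha, beta and gamma clusters one after the other over 911.6 kb. GENCODE gave the plus strand for the 57 members it lists, all but Pcdha10.

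RNA-seq was performed on immortalized striatal cells derived from mouse embryos of strain C57/BL6, all of which carry a knock-in of Htt exon 1. Control cells (STHdhQ7/Q7) carry 7 glutamine repeats on both Htt alleles, HD-het cells (STHdhQ7/Q111) carry 7 on one allele and 111 on the other, and HD-homo cells (STHdhQ111/Q111) carry 111 on both. Each line gave 3 libraries of poly(A) RNA, with totals between 29507665 and 41197931 counts. Each genotype was 1 line, so genotype and line cannot be told apart. The labels do not say that the libraries of a line came from separate cultures, so p-values measure the spread between these libraries, which may be technical. In bulk RNA, fewer cells that express an isoform and less RNA of it per cell cannot be told apart.

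Clustered protocadherins are cell-surface proteins of the cadherin family that bind to the same isoform on a neighbouring cell. Neurons express different combinations of them, each isoform from its own promoter, and the combination serves as a surface identity by which a neuron recognizes its own branches. Alpha and gamma isoforms join a variable first exon, which encodes the extracellular part, to constant exons shared within the cluster, whereas each beta isoform is encoded by a single exon. The variable exons of the C-type isoforms lie nearest to the constant exons, and in neurons they are regulated apart from the others.

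Shared exons set a limit to the counts. Of all 50-base words in the longest transcript, 48.2% to 63.9% for alpha members and 20.1% to 65.9% for gamma members also occurred in another listed gene, against 0% to 11.99% for beta members. Within the first exon alone the median was 0.810% for gamma members, with 39.5% for Pcdhga4 as the highest. How reads on the constant exons were divided among the isoforms is not given in the sources used here, and levels of alpha and gamma members rest on that division.

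Levels are normalized CPM (counts per megaread, scaled between libraries), given as mean ± SD of 3 libraries. An isoform was taken as detected in a line when each of its libraries held at least 1 CPM of raw counts. Control cells had 6 detected isoforms, which were Pcdhb17, Pcdhb22, Pcdhgb2, Pcdhgb5, Pcdhgc3 and Pcdhgc5. HD-het cells had 11, which were Pcdhb5, Pcdhb17, Pcdhb18, Pcdhb22, Pcdhga1, Pcdhga2, Pcdhga5, Pcdhgb1, Pcdhgb2, Pcdhgc3 and Pcdhgc5. HD-homo cells had 6, which were Pcdhb16, Pcdhb17, Pcdhb22, Pcdhga7, Pcdhgc3 and Pcdhgc5. Pcdhb17, Pcdhb22, Pcdhgc3 and Pcdhgc5 were thus detected in all 3 lines. Pcdhgb5 reached the level in control cells alone, 6 isoforms in HD-het cells alone, and Pcdhb16 and Pcdhga7 in HD-homo cells alone. Detection is a threshold on the level and not a test of a difference. At a lower level, more than 3 counts in every library, control cells showed 25 of the 58 members, HD-het cells 31 and HD-homo cells 23. A count of 3 corresponded to between 0.0710 and 0.101 CPM, and this floor covers counting error only.

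**Figure D1:**
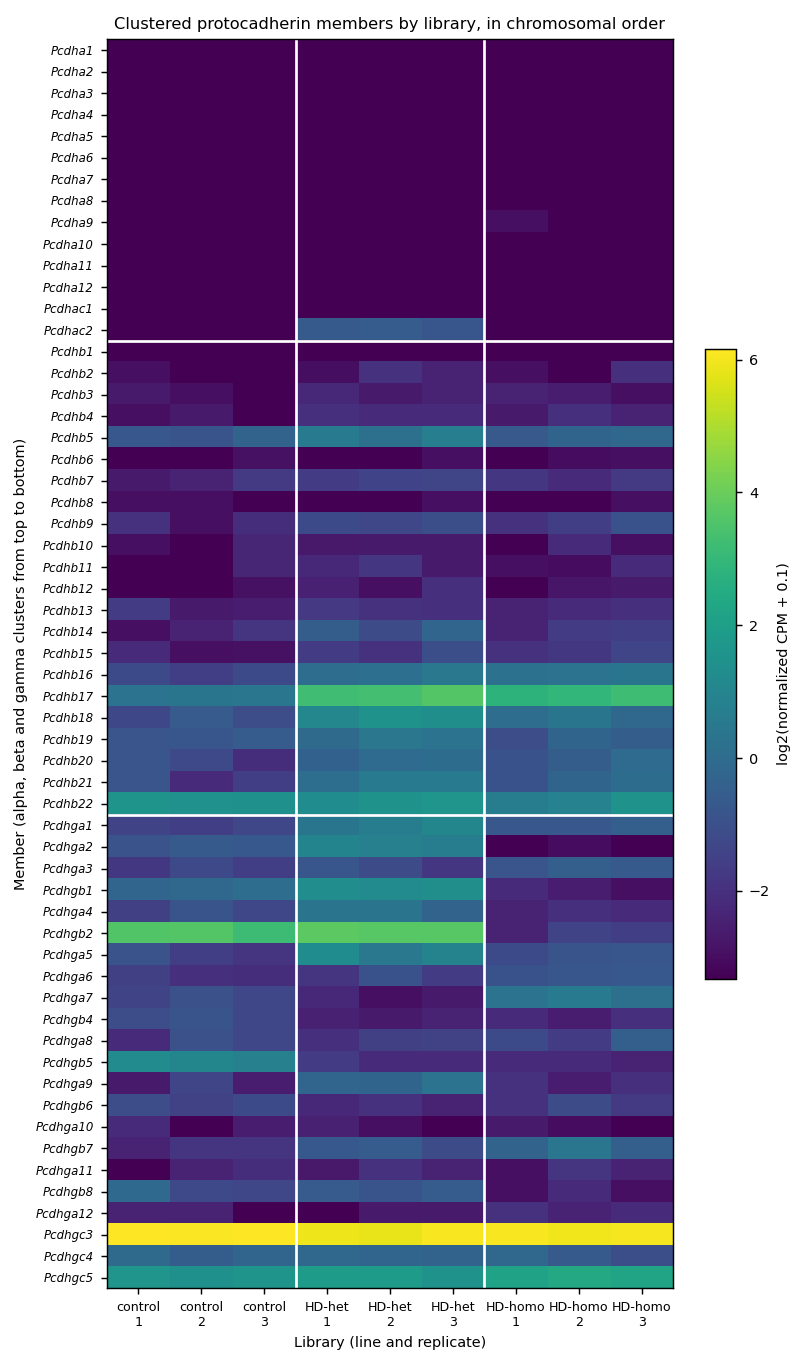
Heat map of log2(normalized CPM + 0.1) for the 58 members (rows, in chromosomal order, with the alpha, beta and gamma clusters separated by white lines) in the 9 libraries (columns, by line and replicate). The alpha cluster is at the lowest colour except for Pcdhac2 in HD-het cells and a single read of Pcdha9, Pcdhgc3 is the brightest row in every library, and Pcdhgb2 is bright in the control and HD-het columns and dark in the HD-homo columns.

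The clusters differed widely in total output. The beta members summed to 6.95 ± 0.447 CPM for control, 23.5 ± 2.92 CPM for HD-het and 15.95 ± 2.96 CPM for HD-homo libraries. The gamma members summed to 91.9 ± 2.53, 90.6 ± 4.36 and 75.5 ± 1.42 CPM in the same order. Pcdhgc3 alone made up most of the gamma sum, at 76.7 ± 1.97% of gamma counts for control, 68.1 ± 2.16% for HD-het and 85.4 ± 1.59% for HD-homo libraries. When the A-type and B-type genes were summed without the C-type genes, the lines separated into 17.9 ± 2.38 CPM for control, 24.8 ± 0.973 CPM for HD-het and 5.70 ± 0.695 CPM for HD-homo cells. The B-type sum was 15.1 ± 2.20 CPM in control, 16.8 ± 0.627 CPM in HD-het and 1.66 ± 0.513 CPM in HD-homo cells. The A-type sum was lowest in control cells, with 2.77 ± 0.412 CPM against 7.95 ± 0.358 CPM in HD-het and 4.05 ± 0.325 CPM in HD-homo cells. These sums are descriptions, and no test was made on them.

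**Figure D2:**
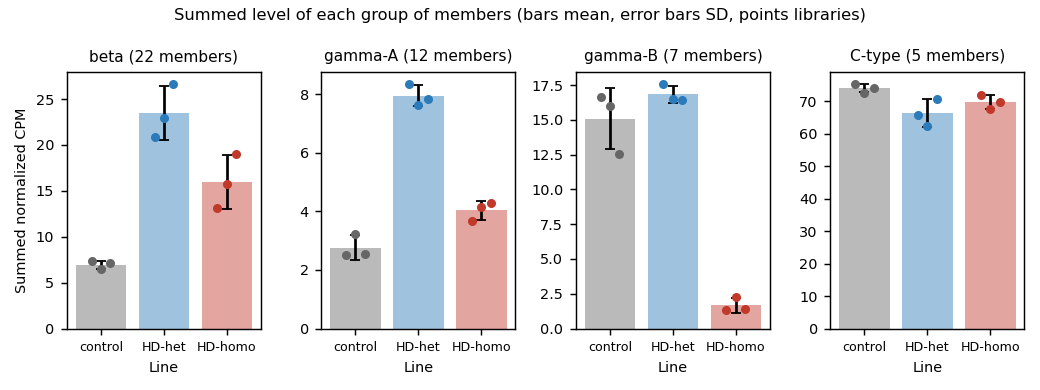
Summed normalized CPM of the beta, gamma A-type, gamma B-type and C-type members (C-type: Pcdhac1, Pcdhac2, Pcdhgc3, Pcdhgc4 and Pcdhgc5) by line, with bars for the mean, error bars for the SD of 3 libraries and points for the libraries. The HD-homo B-type bar, at 1.66 CPM, stands far below the control bar at 15.1 CPM and the HD-het bar at 16.8 CPM, while the C-type bars lie between 66.4 and 74.0 CPM.

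No alpha transcript was seen in control cells, where all 14 members had 0 reads in all 3 libraries, which allows up to 0.101 CPM of each. In HD-homo cells a single read, of Pcdha9 in replicate 1, was the whole alpha output. Pcdhac2, the C-type isoform nearest to the alpha constant exons, had 19, 19 and 16 reads in the 3 HD-het libraries. Its level there, 0.531 ± 0.0501 CPM, was under the detection level of 1 CPM. The 3 HD-het libraries held similar values and did not overlap with the other lines, where Pcdhac2 had no read. Against the floor of 3 counts per library, the HD-het level of Pcdhac2 exceeded control at least 5.61-fold (adjusted p = 9.7e-05, edgeR's quasi-likelihood test) and was at least 6.31-fold above that of HD-homo cells (adjusted p = 5.74e-05). Pcdhac2 passed the filter on low counts through HD-het cells alone, so these p-values are a description and support nothing by themselves. No word of its first exon occurred in another listed gene. Pcdhac1, the other alpha C-type isoform, had 0 reads in all 9 libraries, as did Pcdha1 to Pcdha8 and Pcdha10 to Pcdha12.

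Within the beta cluster the highest isoform changed between lines. In control cells Pcdhb22 held 39.3 ± 2.17% of all beta counts and Pcdhb17 held 17.0 ± 1.57%. In HD-het cells Pcdhb17 held 45.01 ± 1.14% and Pcdhb22 held 11.5 ± 0.492%. HD-homo cells resembled HD-het cells in this order, with 49.8 ± 2.31% for Pcdhb17 and 12.3 ± 1.74% for Pcdhb22, and no test was made on the shares.

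Pcdhb17 measured 1.12, 1.19 and 1.22 CPM in the control libraries. It measured 9.53, 10.03 and 12.2 CPM in the HD-het libraries and 6.87, 7.63 and 9.22 CPM in the HD-homo libraries. All 6 HD libraries were far above all 3 control libraries, and the highest HD-homo library was just under the lowest HD-het library. The log2 fold change was 3.17 ± 0.163 (SE) for HD-het versus control (adjusted p = 4.23e-08, edgeR) and 2.75 ± 0.164 for HD-homo versus control (adjusted p = 8.54e-08). HD-homo cells were lower than HD-het cells by a small margin (log2 fold change -0.42 ± 0.131, adjusted p = 0.0134), a call that was lost without HD-het replicate 3 or HD-homo replicate 1 (highest adjusted p = 0.0588). Pcdhb22 was at 2.73 ± 0.120 CPM in control, 2.70 ± 0.333 CPM in HD-het and 1.99 ± 0.633 CPM in HD-homo cells. None of its 3 comparisons passed the threshold, but its HD-homo libraries spread from 1.53 to 2.71 CPM, and without HD-homo replicate 3, the highest of them, HD-homo cells passed as lower than both other lines (adjusted p = 0.0033 against control and 0.00252 against HD-het).

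Pcdhb18 and Pcdhb5 were detected only in HD-het cells. Pcdhb18 measured 0.311, 0.565 and 0.372 CPM in control, 2.00, 2.71 and 2.55 CPM in HD-het and 0.950, 1.18 and 0.805 CPM in HD-homo libraries. The lines formed 3 steps without overlap, and all 3 differences passed, with log2 fold changes of 2.52 ± 0.256 (HD-het versus control, adjusted p = 7e-06), 1.23 ± 0.280 (HD-homo versus control, adjusted p = 0.0029) and -1.29 ± 0.221 (HD-homo versus HD-het, adjusted p = 0.000285). Pcdhb5 rose from 0.551 ± 0.140 CPM in control to 1.33 ± 0.265 CPM in HD-het cells (adjusted p = 0.00124, edgeR), and was at 0.687 ± 0.148 CPM in HD-homo cells, which did not pass against control (adjusted p = 0.333).

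Pcdhb16 was the only tested beta member with its highest mean in HD-homo cells, although the HD lines overlapped. It measured 0.306 ± 0.0591 CPM in control, 1.08 ± 0.178 CPM in HD-het and 1.14 ± 0.0491 CPM in HD-homo cells. Both HD lines were higher than control (log2 fold changes 1.82 ± 0.241 and 1.89 ± 0.238, adjusted p = 5.22e-05 and 4.26e-05, edgeR), and HD-homo versus HD-het cells gave 0.07 ± 0.193 (adjusted p = 0.763). Pcdhb21 was higher in HD-het cells, at 1.28 ± 0.251 CPM against 0.274 ± 0.177 CPM in control (adjusted p = 0.000561). Its levels in HD-homo cells, 0.696 ± 0.250 CPM, overlapped with control cells. The call of HD-homo against control (adjusted p = 0.0203) was lost without control replicate 2, control replicate 3 or HD-homo replicate 3 (highest adjusted p = 0.0824), and that against HD-het cells (adjusted p = 0.0386) was lost without HD-het replicate 2 or 3 or HD-homo replicate 1 or 2 and with DESeq2 (highest adjusted p = 0.129). Pcdhb21 and Pcdhb22 shared 9.49% of the 50-base words of Pcdhb21.

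The remaining beta members completed the same picture at lower levels. Pcdhb9, Pcdhb14, Pcdhb19 and Pcdhb20 were each above control in HD-het cells, with log2 fold changes of 1.68, 2.55, 1.09 and 1.39 (adjusted p = 0.0133, 0.000942, 0.00434 and 0.00791). The Pcdhb9 call was lost without control replicate 2 (adjusted p = 0.0571). In HD-homo versus control cells only Pcdhb20 of these 4 passed (adjusted p = 0.046), with overlapping libraries, and the call was lost with DESeq2 and without any of 4 single libraries, control replicates 2 and 3 and HD-homo replicates 2 and 3. Pcdhb9 missed the threshold there (adjusted p = 0.0511) and passed without HD-homo replicate 1. Pcdhb14 and Pcdhb19 were lower in HD-homo versus HD-het cells (log2 fold changes -1.61 and -0.90, adjusted p = 0.00522 and 0.00891). Pcdhb14 passed the filter on low counts through HD-het cells alone, so its p-values are a description and support nothing by themselves. Of the 12 beta members under the filter on low counts, Pcdhb1 had no read in any library. The other 11, Pcdhb2 to Pcdhb4, Pcdhb6 to Pcdhb8, Pcdhb10 to Pcdhb13 and Pcdhb15, had at most 13 reads in a library.

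Per length, beta output was concentrated at the end of the cluster nearest to the gamma genes. Pcdhb16 to Pcdhb22, the last 7 in chromosomal order, held 82.3 ± 4.52% of beta counts in control, 85.0 ± 2.14% in HD-het and 87.4 ± 1.63% in HD-homo cells. Their median was 0.0825 CPM per kb of transcript in control cells against 0.00812 CPM per kb for Pcdhb1 to Pcdhb15. The same medians were 0.271 against 0.0321 in HD-het and 0.194 against 0.0208 CPM per kb in HD-homo cells. The split was placed after the values were seen, so that it is a description. Pcdhb5 stood out among the first 15, with the highest value there in each line.

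**Figure D3:**
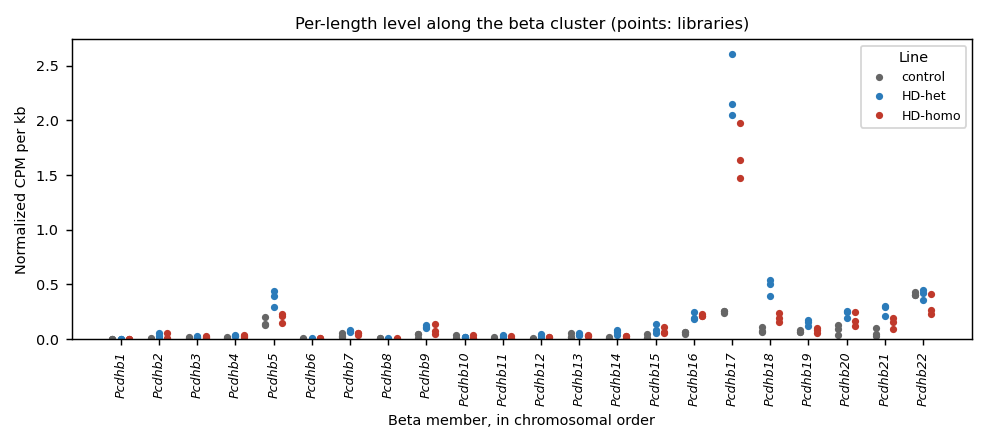
Normalized CPM per kb of the longest annotated transcript (vertical axis) for the 22 beta members in chromosomal order (horizontal axis), with 1 point per library coloured by line. Pcdhb17 rises above 1 CPM per kb in the HD-het and HD-homo libraries and stays near 0.252 CPM per kb in control cells, and the first 15 members stay near 0 apart from Pcdhb5.

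Pcdhgc3, the most highly expressed clustered protocadherin in every line, measured 71.3, 69.5 and 70.5 CPM in control, 61.0, 57.5 and 66.8 CPM in HD-het and 66.8, 62.1 and 64.6 CPM in HD-homo libraries. Per length this was 15.03, 13.2 and 13.8 CPM per kb, above 63.8%, 60.6% and 61.2% of the 13117 tested genes with a known length. The control libraries lay above those of both HD lines, by little. The difference passed in HD-het versus control (log2 fold change -0.19 ± 0.0636, adjusted p = 0.0214, edgeR) but was lost without control replicate 1, control replicate 3, HD-het replicate 1 or HD-het replicate 2 (highest adjusted p = 0.0927), and it did not pass in HD-homo versus control (-0.13 ± 0.0635, adjusted p = 0.107).

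Pcdhgc5 was higher in HD-homo cells than in both other lines. Its libraries measured 2.99, 2.59 and 2.91 CPM in control, 3.58, 3.54 and 2.82 CPM in HD-het and 4.35, 5.14 and 4.59 CPM in HD-homo cells. The HD-homo libraries did not overlap with the rest, and the log2 fold changes were 0.73 ± 0.140 against control (adjusted p = 0.000896, edgeR) and 0.51 ± 0.137 against HD-het cells (adjusted p = 0.00604). Pcdhgc4, the C-type isoform on which interneuron survival depends in mice, was low in all lines, at 0.737 ± 0.138, 0.757 ± 0.0357 and 0.577 ± 0.206 CPM, and passed in no comparison (adjusted p between 0.208 and 0.899), although without HD-homo replicate 1 it passed as lower in HD-homo versus HD-het cells (adjusted p = 0.0486).

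Pcdhgb2 was the dominant A-type or B-type isoform of control and HD-het cells and was nearly lost in HD-homo cells. It was counted 384, 406 and 262 times in the control libraries, 485, 422 and 425 times in the HD-het libraries and 3, 12 and 8 times in the HD-homo libraries. These counts correspond to 10.96 ± 1.82, 13.1 ± 0.512 and 0.205 ± 0.1004 CPM. The HD-homo libraries were far below all others, 53.5-fold lower than control (log2 fold change -5.67 ± 0.237, adjusted p = 4.8e-09, edgeR) and 63.9-fold lower than HD-het cells (log2 fold change -5.93 ± 0.235, adjusted p = 2.3e-09). HD-het versus control cells gave 0.25 ± 0.144 (adjusted p = 0.141). As a share of all A-type and B-type counts, Pcdhgb2 made up 61.2 ± 2.22% in control, 52.8 ± 0.406% in HD-het and 3.49 ± 1.44% in HD-homo cells. Of the words of its first exon, 16.5% also occurred in that of Pcdhgb1.

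Pcdhgb5 was highest in control cells. It measured 2.30, 1.93 and 1.66 CPM in the control libraries, 0.226, 0.122 and 0.120 CPM in the HD-het libraries and 0.123, 0.118 and 0.0895 CPM in the HD-homo libraries. Both HD lines were below control without overlap, 12.6-fold in HD-het (adjusted p = 8.27e-07, edgeR) and 17.8-fold in HD-homo cells (adjusted p = 3.65e-07), and HD-homo versus HD-het cells did not pass (adjusted p = 0.403). Pcdhgb4, which lies before it in the cluster with Pcdhga8 between them, went the same way at a lower level, from 0.375 ± 0.0709 CPM in control to 0.0785 ± 0.0154 CPM in HD-het (adjusted p = 0.000438) and 0.114 ± 0.0397 CPM in HD-homo cells (adjusted p = 0.00163). Both genes passed the filter on low counts through control cells alone, so their p-values are a description and support nothing by themselves. The first exons of Pcdhgb4 and Pcdhgb5 had 5.64% of words in common.

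HD-het cells added a set of isoforms that stayed under the detection level elsewhere. Pcdhga2 measured 0.435, 0.535 and 0.507 CPM in control and 1.83, 1.65 and 1.47 CPM in HD-het libraries, and it had 0, 1 and 0 reads in the HD-homo libraries. With that single read the ratio of HD-het to HD-homo cells was 209, with a 95% counting interval from 31.7 to 7116, and that of control to HD-homo cells was 62.4 with an interval from 9.13 to 2154. All 3 comparisons passed (adjusted p = 5.48e-05 for HD-het versus control, 1.01e-05 for HD-homo versus control and 8.66e-08 for HD-homo versus HD-het, edgeR). Its first exon shared 0.317% of its words with another gene.

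Pcdhgb1 followed the same order of lines, with 0.832 ± 0.103 CPM in control, 2.39 ± 0.09997 CPM in HD-het and 0.0745 ± 0.0465 CPM in HD-homo cells. HD-het cells exceeded control 2.87-fold (adjusted p = 4.95e-05), and HD-homo cells were 11.2-fold below control and 32.1-fold below HD-het cells (adjusted p = 6.18e-06 and 5.69e-08, edgeR). Pcdhga4 also kept this order, at 0.333 ± 0.102, 1.01 ± 0.253 and 0.118 ± 0.0251 CPM, and all 3 comparisons passed, although HD-homo versus control was lost without control replicate 2 (adjusted p = 0.0589). The values of Pcdhga4 and Pcdhgb1 are not independent of each other in sequence, since 38.7% of the words of the longest Pcdhga4 first exon also occurred in Pcdhgb1. Pcdhga2, Pcdhgb1 and Pcdhga4 were the 3 gamma members that passed as higher in HD-het and lower in HD-homo cells, each against control.

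Pcdhga1 and Pcdhga5 were higher in HD-het cells without being lower than control in HD-homo cells. Pcdhga1 measured 0.280, 0.238 and 0.304 CPM in control, 1.18, 1.52 and 1.92 CPM in HD-het and 0.490, 0.497 and 0.626 CPM in HD-homo libraries. HD-het cells were 5.63-fold above control (adjusted p = 1.07e-05, edgeR) and HD-homo cells 2.87-fold below HD-het cells (adjusted p = 0.00012). The HD-homo versus control call (log2 fold change 0.96 ± 0.306, adjusted p = 0.0185) was lost without control replicate 2, without HD-homo replicate 3 and with DESeq2. Pcdhga5 was at 0.281 ± 0.138, 1.81 ± 0.545 and 0.421 ± 0.0742 CPM, with HD-het cells 6.43-fold above control (adjusted p = 3.9e-05). Pcdhga9 had the same form, at 0.142 ± 0.134, 0.867 ± 0.209 and 0.125 ± 0.0463 CPM (HD-het versus control adjusted p = 0.00048, HD-homo versus HD-het adjusted p = 0.000193). It passed the filter on low counts through HD-het cells alone, so these p-values are a description and support nothing by themselves.

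Pcdhga7 was the leading A-type or B-type isoform of HD-homo cells. It measured 1.13, 1.37 and 1.04 CPM in the HD-homo libraries, against 0.280, 0.416 and 0.304 CPM in control and 0.113, 0.0305 and 0.0599 CPM in HD-het libraries. The 3 lines did not overlap, and the order was the reverse of that of Pcdhga2, with HD-het cells lowest. HD-homo cells were 3.55-fold above control (adjusted p = 0.000139, edgeR) and 17.5-fold above HD-het cells (adjusted p = 1.4e-06), and HD-het cells were 4.92-fold below control (adjusted p = 0.00107). Pcdhga7 held 20.8 ± 2.14% of A-type and B-type counts in HD-homo, 1.88 ± 0.370% in control and 0.269 ± 0.156% in HD-het cells. No word of its first exon was found in another listed gene.

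Pcdhgb7 came next in HD-homo cells, with 14.8 ± 4.12% of A-type and B-type counts. Its level was 0.147 ± 0.0467 CPM in control, 0.482 ± 0.112 CPM in HD-het and 0.854 ± 0.329 CPM in HD-homo cells, and both HD lines passed as higher than control (adjusted p = 0.00564 and 0.000228, edgeR). HD-homo versus HD-het passed at 0.85 ± 0.315 (adjusted p = 0.0307) and was lost without HD-het replicate 1, HD-het replicate 3 or HD-homo replicate 2, and with DESeq2 (highest adjusted p = 0.186). Pcdhga3 and Pcdhga6 passed as above control in HD-homo cells (log2 fold changes 1.119 ± 0.361 and 1.38 ± 0.385, adjusted p = 0.0203 and 0.00959). The Pcdhga3 call was lost without control replicate 1, control replicate 3 or HD-homo replicate 2 and with DESeq2 (highest adjusted p = 0.0832). In HD-homo versus HD-het cells Pcdhga3 and Pcdhga6 did not pass (adjusted p = 0.0929 and 0.0564), but each passed without 1 library, HD-het replicate 1 for Pcdhga3 (adjusted p = 0.0403) and HD-het replicate 2 for Pcdhga6 (adjusted p = 0.00911).

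Of the other gamma members, Pcdhgb8, which RefSeq lists as a transcribed pseudogene, was lower in HD-homo cells than in both other lines, at 0.0596 ± 0.0509 CPM against 0.490 ± 0.303 CPM in control (adjusted p = 0.00157) and 0.530 ± 0.0631 CPM in HD-het cells (adjusted p = 0.000712, edgeR). Pcdhgb6 was below control in HD-het cells (log2 fold change -1.43 ± 0.417, adjusted p = 0.0104), which was lost with DESeq2. Its call in HD-homo versus HD-het cells (adjusted p = 0.0475) was lost without any of 5 single libraries, all but HD-homo replicate 1. Pcdhga8 passed in no comparison (adjusted p between 0.169 and 0.558). Pcdhga10, Pcdhga11 and Pcdhga12 were under the filter on low counts, with at most 7 reads in a library.

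**Figure D4:**
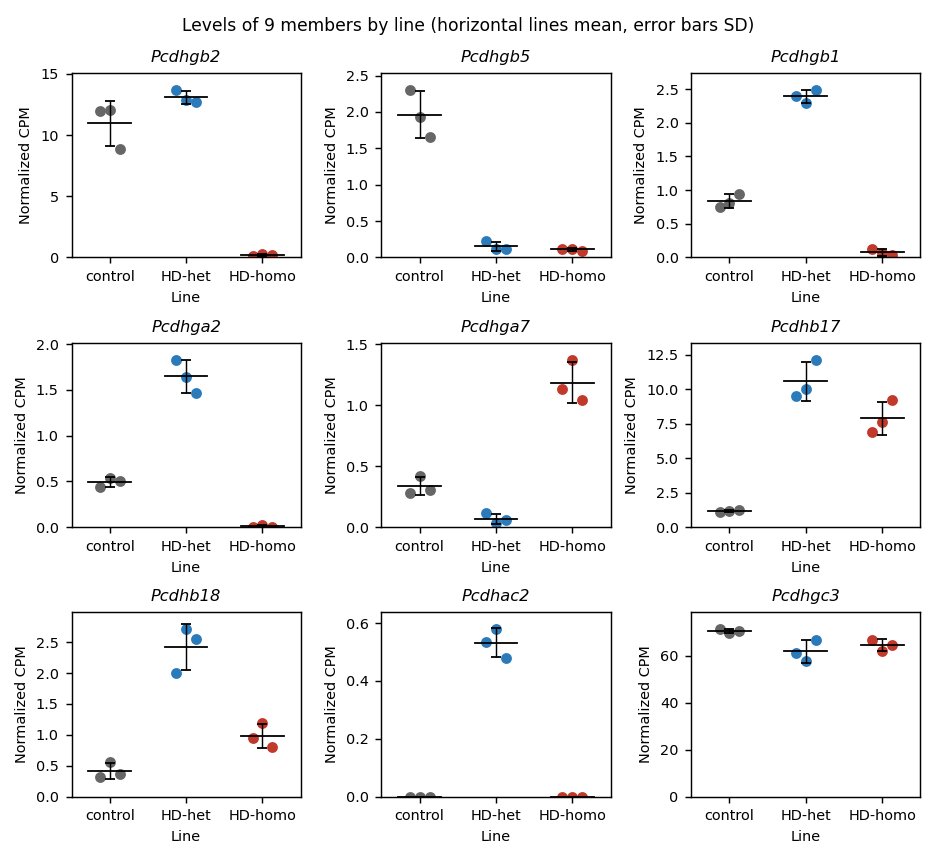
Normalized CPM of 9 members by line, each panel with its own axis from 0, with 1 point per library, a horizontal line for the mean and error bars for the SD of 3 libraries. Pcdhgb2, Pcdhgb1 and Pcdhga2 sit near 0 in HD-homo cells, Pcdhgb5 is high in control cells, Pcdhga7 is high in HD-homo cells, Pcdhac2 is above 0 in HD-het cells, and Pcdhgc3 lies between 57.5 and 71.3 CPM in all libraries.

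The genes that were low in HD-homo cells were interrupted by others in the order of the cluster. In chromosomal order the gamma cluster begins with Pcdhga1, Pcdhga2, Pcdhga3, Pcdhgb1, Pcdhga4 and Pcdhgb2. Of these 6, Pcdhga2, Pcdhgb1, Pcdhga4 and Pcdhgb2 were below control in HD-homo cells, while Pcdhga3, which lies among them, and Pcdhga1, which lies before them, passed as higher. Pcdhgb4, Pcdhgb5 and Pcdhgb8, the other 3 members that fell, lay further along at positions 10, 12 and 18 of 22. By type, 5 of the 7 tested B-type members were below control in HD-homo cells and 1 was higher, and 2 were lower and 4 higher of the 9 tested A-type members, where 28.9% of all tested genes were lower and 29.6% higher. The difference between the types was not tested. The order was read after the values were seen.

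Over the whole set, 30 of the 58 members passed the filter on low counts and were tested among 13508 genes. These were 1 alpha, 10 beta and 19 gamma members. A member that is high in a single line can pass the filter through that line alone, so the counts below describe the tested members and support nothing by themselves. In HD-homo versus control cells, 11 members were higher, 7 lower and 12 did not pass, so that 60.0% were called against 58.6% of all tested genes. In HD-het versus control cells, 17 were higher, 5 lower and 8 did not pass, or 73.3% against 65.1%. In HD-homo versus HD-het cells, 4 were higher, 15 lower and 11 did not pass, or 63.3% against 71.6%. The share called was thus near that of all genes in each comparison. Tested members whose libraries did not overlap numbered 17 in HD-homo versus control (65.3% of all tested genes did not overlap), 23 in HD-het versus control (74.0%) and 20 in HD-homo versus HD-het cells (72.8%).

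The directions differed between clusters. All 9 called beta members were above control in HD-het cells, where 33.8% of all tested genes were higher and 31.4% lower. All 5 called beta members were above control in HD-homo cells (29.6% of all tested genes higher, 28.9% lower), and all 6 were below the HD-het level in HD-homo cells (36.0% higher, 35.6% lower). The gamma cluster was divided, with 6 members higher and 7 lower in HD-homo versus control, 7 higher and 5 lower in HD-het versus control, and 4 higher and 8 lower in HD-homo versus HD-het cells. The comparisons share libraries and are not independent of each other.

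**Figure D5:**
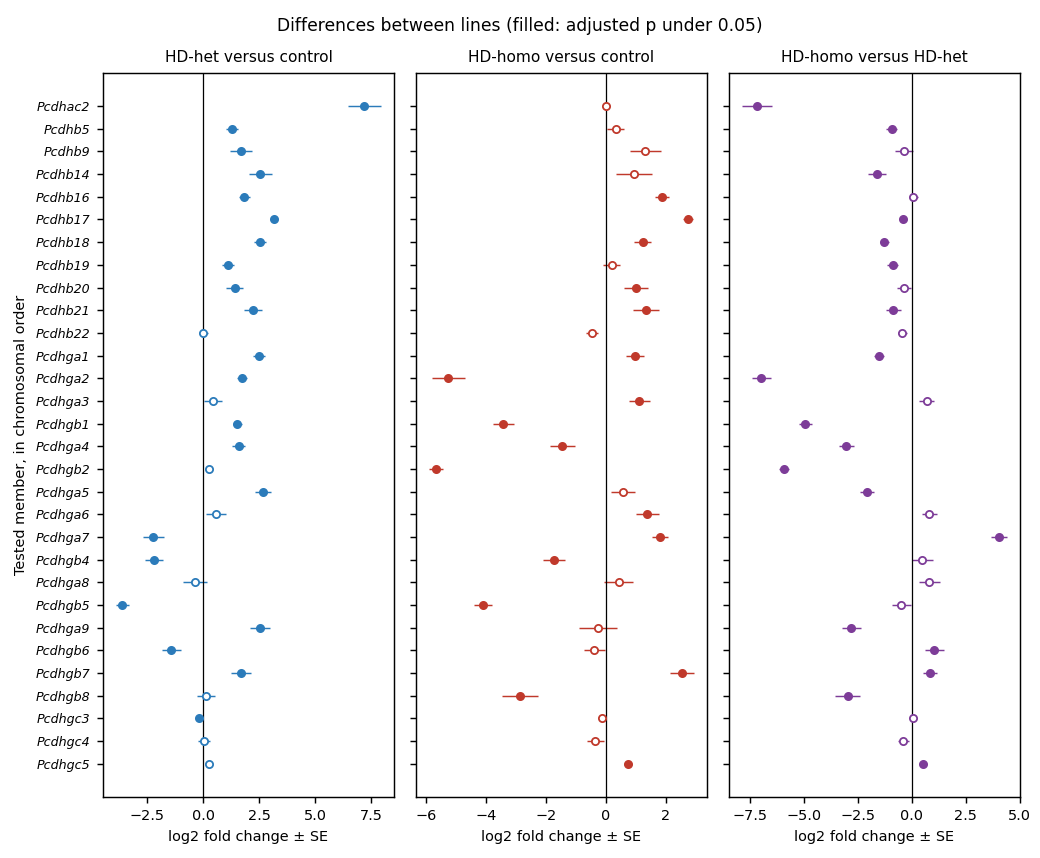
Log2 fold change ± SE (horizontal axis) of the 30 tested members in chromosomal order (vertical axis) for HD-het versus control, HD-homo versus control and HD-homo versus HD-het cells, with filled points for an adjusted p under 0.05. The beta members lie at or to the right of 0 in the first panel apart from Pcdhb22 at -0.01, and the gamma members reach from -5.67 to 2.54 in the second panel.

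Genes with a known or possible part in the choice of these promoters were examined as a list of 26, which held CTCF, cohesin and its loader, and proteins of DNA and histone methylation. All 26 were tested. In HD-het versus control cells 4 were higher and 14 lower, in HD-homo versus control 3 were higher and 7 lower, and in HD-homo versus HD-het 14 were higher and 4 lower. The median log2 fold changes were -0.25, 0.01 and 0.23 in this order, against 0.03, 0.01 and 0.00 over all tested genes. The shares called were 69.2%, 38.5% and 69.2%, against 65.1%, 58.6% and 71.6%. Tet1, which oxidizes methylated cytosine, was at 5.89 ± 0.301 CPM in control, 0.666 ± 0.113 CPM in HD-het and 1.39 ± 0.0642 CPM in HD-homo cells (log2 fold changes against control -3.13 ± 0.158 and -2.08 ± 0.142, adjusted p = 3.7e-08 and 2.69e-07, edgeR). Dnmt3a, a de novo DNA methyltransferase, was above control in HD-het cells (72.1 ± 8.83 against 32.8 ± 3.73 CPM, adjusted p = 3.92e-06), and Tet2 was too (22.2 ± 3.89 against 9.93 ± 0.977 CPM, adjusted p = 3.98e-05). Dnmt3b, the de novo enzyme that methylates these promoters in mouse development, was higher in HD-homo cells at 8.53 ± 0.936 CPM than in control at 5.06 ± 1.22 CPM (adjusted p = 0.00368) and HD-het at 4.31 ± 0.692 CPM (adjusted p = 0.000429). Hells was lower in HD-het cells (log2 fold change -0.86 ± 0.0836, adjusted p = 4.91e-06), and Uhrf1, which keeps methylation through replication, was lower in both HD lines (-0.65 and -0.61, adjusted p = 1.6e-05 and 2.75e-05). Nipbl, the cohesin loader, was lower in HD-het versus control (-0.44 ± 0.103, adjusted p = 0.00271) and higher in HD-homo versus control cells (0.31 ± 0.102, adjusted p = 0.0237), the latter a call lost without single libraries (highest adjusted p = 0.0907). Their part in the isoform levels was not tested.

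Proteins that bind clustered protocadherins, process them or act below them were examined as a list of 20, all tested. In HD-het versus control cells 9 were higher and 5 lower, in HD-homo versus control 4 were higher and 8 lower, and in HD-homo versus HD-het 4 were higher and 10 lower, with medians of 0.15, -0.11 and -0.16 on the log2 scale. The shares called were 70.0%, 60.0% and 70.0%, against 65.1%, 58.6% and 71.6% of all tested genes. Cdh2 (N-cadherin) was at 406 ± 8.19 CPM in control, 410 ± 21.4 CPM in HD-het and 59.9 ± 5.04 CPM in HD-homo cells (HD-homo versus control log2 fold change -2.76 ± 0.0724, adjusted p = 1.02e-10). Ptk2, the focal adhesion kinase that the constant domains bind and inhibit, was below control in HD-het cells (-0.65 ± 0.0482, adjusted p = 6.64e-07), and its relative Ptk2b was higher in both HD lines (0.58 and 0.59, adjusted p = 0.00209 and 0.00218). Prkca, a protein kinase C, was lower in HD-het (-0.74, adjusted p = 2.19e-05) and higher in HD-homo cells (0.68, adjusted p = 4.23e-05). Wasf1 and Cyfip2, subunits of the WAVE complex that drives actin branching, were lower in both HD lines, with log2 fold changes from -1.40 to -0.93. Psen2, a subunit of gamma-secretase, and Nlgn1, a synaptic adhesion protein, were above control in HD-het cells (1.04 and 1.88, adjusted p = 4.91e-05 and 0.00243).

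Of 12 protocadherins outside the clusters, 5 were tested. In HD-homo versus control cells 4 were lower and 0 higher, in HD-het versus control 2 were higher and 2 lower, and in HD-homo versus HD-het cells 1 was higher and 4 lower, with medians of 0.24, -1.23 and -1.45 given in the order HD-het versus control, HD-homo versus control and HD-homo versus HD-het. In that order, the shares called were 80%, 80% and 100% of only 5 genes, against 65.1%, 58.6% and 71.6% of all tested genes. Pcdh7 fell from 87.4 ± 5.22 CPM in control to 15.98 ± 1.29 CPM in HD-homo cells (adjusted p = 5.04e-10, edgeR), and Pcdh18 from 120 ± 6.07 to 27.6 ± 4.65 CPM (adjusted p = 6.91e-08). Pcdh1 was lower in both HD lines (log2 fold changes -1.78 in HD-het and -1.23 in HD-homo cells). Pcdh7 in HD-het versus control passed at 0.24 ± 0.0716 (adjusted p = 0.0132) and was lost without control replicate 3 or HD-het replicate 2 (highest adjusted p = 0.0618). Pcdh9 was higher in HD-het cells at 0.873 ± 0.290 CPM against 0.0509 ± 0.0472 CPM (adjusted p = 0.000118). It passed the filter on low counts through HD-het cells alone, so this p-value is a description.

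Genes on either side of the clusters were examined as a list of 24, of which 22 were tested. In HD-het versus control cells 12 were higher and 3 lower, in HD-homo versus control 6 were higher and 6 lower, and in HD-homo versus HD-het 2 were higher and 11 lower, with medians of 0.27, 0.04 and -0.26 on the log2 scale. The shares called were 68.2%, 54.5% and 59.1%, against 65.1%, 58.6% and 71.6% of all tested genes. Taf7, a transcription factor subunit encoded between the beta and gamma clusters, was at 3.25 ± 0.146 CPM in control, 6.09 ± 0.147 CPM in HD-het and 4.58 ± 0.351 CPM in HD-homo cells, and all 3 differences passed (adjusted p = 2.95e-05, 0.00289 and 0.00504, edgeR). Gnpda1 was above control in HD-het cells (log2 fold change 1.26 ± 0.112, adjusted p = 2.58e-06), and Spry4 was below control in HD-homo cells (-1.91 ± 0.199, adjusted p = 9.14e-06), as was Ankhd1 by less (-0.34 ± 0.0714, adjusted p = 0.00187). Wdr55 and Slc35a4 were higher in HD-homo versus HD-het cells (0.72 and 0.39, adjusted p = 2.78e-05 and 0.000251). The calls of Fchsd1 in HD-homo versus control (0.58, adjusted p = 0.029) and of Hars in HD-het versus control (-0.17, adjusted p = 0.0374) were lost without single libraries (highest adjusted p = 0.0952 and 0.150). The lowest log2 fold change among the 22 tested neighbours in HD-homo versus control cells was -1.91. Pcdhgb2, Pcdhga2, Pcdhgb5, Pcdhgb1 and Pcdhgb8 were further below control than this, whereas Pcdhgb4 (-1.73) and Pcdhga4 (-1.46) were not.

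The labelled striatal identity was compared with markers. Of 17 neuronal markers, 8 were at or under 3 counts in all libraries of control cells and 8 in those of each HD line, not all of them the same genes. The 17 together, with markers not named here, summed to 230.4 to 273 CPM in control, 230.8 to 236.8 CPM in HD-het and 256.6 to 299.8 CPM in HD-homo libraries. Rbfox3, Snap25, Syt1, Dcx, Drd1 and Drd2 had a mean of at most 0.0307 CPM in any line, whereas Map2 was at 59.7 to 62.9 CPM and Tubb3 at 37.8 to 50.8 CPM. Stmn2, a neuronal microtubule regulator, was at 53.7 ± 6.63 CPM in control, 2.71 ± 0.253 CPM in HD-het and 2.75 ± 0.575 CPM in HD-homo cells (log2 fold changes against control -4.31 and -4.28, adjusted p = 2.68e-09 and 9.77e-10, edgeR). Ppp1r1b, a marker of striatal projection neurons under the filter on low counts, had 2, 3 and 2 reads in the control, 1, 1 and 1 in the HD-het and 11, 17 and 8 in the HD-homo libraries. The neuronal markers called were 4 higher and 2 lower in HD-het versus control, 2 higher and 1 lower in HD-homo versus control, and 2 higher and 3 lower in HD-homo versus HD-het cells, of 7 tested. The shares called were 85.7%, 42.9% and 71.4%, against 65.1%, 58.6% and 71.6% of all tested genes. Markers of mesenchymal cells summed to 4852 to 6151 CPM in control, 14680 to 16550 CPM in HD-het and 6564 to 7141 CPM in HD-homo libraries. Of 8 tested, 5 were higher and 2 lower in each HD line against control, or 87.5% called, against the same shares of all tested genes. Log2 fold changes of these 8 ran from -4.54 to 2.72 in HD-het and from -4.63 to 5.87 in HD-homo cells. In HD-homo versus HD-het cells 3 were higher and 5 lower (100% called, against 71.6%), with log2 fold changes from -6.39 to 8.89. The sums thus join opposite changes of single markers. Astrocyte markers summed to 2.77 to 3.01 CPM in control, 1.1 to 1.59 CPM in HD-het and 12.8 to 18.6 CPM in HD-homo cells, with Aqp4 at 0 in control and HD-homo cells. Of the 2 astrocyte markers tested both were higher in HD-homo versus control cells, and 1 was lower in HD-het versus control, or 100% and 50% called. Oligodendrocyte markers summed to at most 2.86 CPM in any library, and microglia markers to 12.2 to 15.96, 42.6 to 52.4 and 13.2 to 14.5 CPM in the 3 lines, of which Tmem119 made up most and Aif1 had no read. The part of these differences in the isoform levels was not tested. Htt itself was at 99.97 ± 6.00 CPM in control, 62.3 ± 1.505 CPM in HD-het and 20.2 ± 1.29 CPM in HD-homo cells.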

How the data were processed

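The authors selected poly(A) RNA, made directional libraries and deposited 1 table of raw counts per gene symbol, with 1 column per library. The submitters' processing notes name cutadapt, Bowtie 1.1.2, RSEM 1.3.0, DESeq2 and the builds GRCm38.p5 and mm10, with no roles. The annotation is not given in the sources used here. The deposited counts are whole numbers, and they were used as they stand.

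The members, gene lists and tests were chosen with earlier results of these data known. P-values without a tool name come from edgeR. In R 4.3.3, edgeR 4.0.16 kept 13508 genes by filterByExpr (minimum count 10), normalized by TMM (factors 0.984 to 1.03) and fitted 1 mean per line to all 9 libraries. Lines were compared by the quasi-likelihood test, with Benjamini-Hochberg adjustment over all tested genes and a threshold of 0.05. The table names no isoform structure, so lengths and shared 50-base words came from the longest GENCODE transcript (57 of 58 members), and positions from RefSeq. Folds are ratios of mean normalized CPM, or against the floor of 3 counts where a line had no read in any library. The pipeline was tested on simulated data for HD-homo versus control, with 200 of 13508 genes changed. It called 178 of these, with 5.32% false calls. The simulated counts used the dispersions fitted to these data, and 58.6% of tested genes were called in the real comparison. The simulation thus does not give the share of false calls there.

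Members were named if C-type, among the 3 highest of a cluster in a line, among the 5 largest changes in each direction with at least 1 CPM, or detected in a single line. From the other lists the 2 largest changes in each direction were named. Members outside this rule, and markers, were named after their values were seen, to account for the whole set. Replicate numbers were tested for pairing. Alternatives covered normalization, filter, test, threshold, libraries left out and the block. Counts of other assays of the study were not analysed here, and no sequence of a member is printed.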

Additional observations from a re-analysis of the deposited data

How the results depend on the processing

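No call of a tested member or named gene reversed under any alternative that tested it. Of the alternative values for single genes, 2216 kept direction and side of the threshold, 69 lost the call and 22 gained it. In HD-het versus control cells 19 of 22 member calls were kept under every alternative that tested the member, in HD-homo versus control 13 of 18, and in HD-homo versus HD-het 15 of 19. With at least 10 counts in every library, which left 8 members to test, 3 were higher and 0 lower in HD-homo versus control (edgeR), 4 and 1 in HD-het versus control, and 1 and 4 in HD-homo versus HD-het. That filter removes a member that is low in any line. The 7 members called lower in HD-homo versus control were all removed, so this alternative could not test them. At an adjusted p of 0.01, 7 were higher in HD-homo versus control, 3 lower in HD-het versus control and 2 higher in HD-homo versus HD-het. With only the 2 compared lines in the fit, 26 members were tested, 3 were lower in HD-het versus control and 2 higher in HD-homo versus HD-het. DESeq2's Wald test, and a log2 fold change of at least 1, each left 2 members higher in HD-homo versus HD-het.

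Without single libraries, members higher and lower ranged from 8 to 13 and 6 to 8 in HD-homo versus control, 16 to 18 and 4 to 5 in HD-het versus control, and 2 to 4 and 13 to 16 in HD-homo versus HD-het, where 2 were higher without HD-het replicate 3 or without HD-homo replicate 2. Detected isoforms stayed at 6 in control and HD-homo cells and ranged from 11 to 14 in HD-het cells. HD-het cells had 18 detected isoforms at 0.5 CPM and 6 at 2 CPM, and HD-homo cells 3 at 2 CPM. The cluster sums moved by less than 1 SD with DESeq2's size factors and with library totals only.

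The replicate numbers were not taken as pairs, by a rule that asked for a same-number correlation of deviations over 0.1 in every pair. At least 1 pair of each comparison was under it (mean 0.0213, 0.109 and 0.0808). Yet 6 of 6, 6 of 6 and 4 of 6 libraries were closest to their own number, a hint of pairing that the rule does not settle. With the replicate block, 11 members were higher and 7 lower in HD-homo versus control, 17 and 5 in HD-het versus control, and 3 and 15 in HD-homo versus HD-het. The block added Pcdhb9 and dropped Pcdhb20 in HD-homo versus control and dropped Pcdhgb6 in HD-homo versus HD-het, and it changed no other member call.

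Depth limits the low members. At 3 counts or fewer per library a difference was not detectable, which held for 13 of 14 alpha members. The per-length medians of the beta cluster, with RefSeq gene length chosen after seeing the data, were 0.101 against 0.00935 CPM per kb in control, 0.470 against 0.0328 in HD-het and 0.216 against 0.0216 in HD-homo cells.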
